A study of Mus musculus with 6 samples.

Results

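The genes described here are those of adrenergic, cyclic AMP (cAMP) and RGS signalling, in a mouse subcutaneous white adipose cell line overexpressing either of 2 PPARγ2 mutants. They were chosen by symbol: the α- and β-adrenergic receptors (*Adra*, *Adrb*), the adenylyl cyclases (*Adcy*), the genes named as phosphodiesterases (*Pde*, with *Pde3b* left out), the 6 subunits of protein kinase A (PKA), the A-kinase anchoring proteins (*Akap*), the regulators of G protein signalling (*Rgs*), *Gnas*, *Mrap* and *Ffar4*. Of 56884 gene IDs in the tables, 91 met this rule. Levels are in TPM (a share of the library's transcripts, corrected for gene length). A minimum of 0.5 TPM in 3 or more libraries was reached by 53 of them, and the other 38 stayed below it.

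RNA was sequenced at day 2 of beige adipocyte differentiation from K382Q cells (3 libraries) and K382R cells (3 libraries), and the labels call the libraries of a mutant biological replicates. In K382Q a lysine of PPARγ2 is replaced by glutamine, which mimics acetylation, and in K382R the same lysine is replaced by arginine, which mimics the deacetylated state. Both groups are immortalised cells of the stromal vascular fraction (SVF), the part of adipose tissue that holds adipocyte precursors, and both carry HA-tagged mouse PPARγ2 from a retroviral pMXs-Puro vector after puromycin selection. Both had the same beige medium, with 500 µM isobutylmethylxanthine (IBMX, a non-selective phosphodiesterase inhibitor), 125 µM indomethacin, 2 µg/mL dexamethasone, insulin at 5 µg/mL, the thyroid hormone T3 at 1 nM and rosiglitazone, a PPARγ agonist, at 0.5 µM. Cells with wild-type PPARγ2 or an empty vector were not analysed here, so each difference below is of K382Q against K382R. Nothing in the labels says that the replicates came from separate transductions, and the p-values then measure only the spread between these libraries.

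Noradrenaline acts on fat cells through G protein-coupled receptors. The β-receptors couple to the stimulatory protein Gs, whose α-subunit is the main product of *Gnas*, and so activate adenylyl cyclases, which make cAMP; the α2-receptors couple to the inhibitory protein Gi. cAMP releases the catalytic subunits of PKA, phosphodiesterases break it down, anchoring proteins place PKA in the cell, and RGS proteins shorten the G protein signal by speeding GTP hydrolysis. In brown and beige adipocytes this pathway drives lipolysis and thermogenic genes.

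The 6 libraries held 5.95 to 8.15 Gb of aligned sequence. The ranges of the mutants overlapped (5.95 to 7.5 Gb in K382Q and 6.53 to 8.15 Gb in K382R), but the K382Q median was lower (5.96 against 7.79 Gb). *Pparg*, for which reads of the vector and of the endogenous gene are not distinguished, was at 1200 ± 119 TPM (SD, n = 3) in K382Q and 1610 ± 21.1 TPM in K382R cells. Adipocyte markers were abundant in both groups, with summed levels of 54600 to 58200 TPM in K382Q and 45500 to 46700 TPM in K382R cells. *Fabp4* supplied most of this sum and was higher in K382Q cells. Of the 8 genes of the list, 3 were higher and 4 were lower, with *Adipoq* at 148 ± 1.2 against 360 ± 20.2 TPM and *Cebpa* at 179 ± 14.1 against 315 ± 18.8 TPM among the lower ones. The beige and brown adipocyte list was higher in K382Q cells (361 to 367 against 143 to 153 TPM, with 5 of its 5 tested genes higher, of which *Ucp1* passed the minimum only through its K382Q libraries), and the precursor and fibroblast list was lower (535 to 578 against 926 to 964 TPM, with 6 of its 6 tested genes lower). Smooth muscle and pericyte markers summed to 17.5 to 18.6 against 23.9 to 27.9 TPM, with 1 gene higher (*Des*, 5.00 ± 0.475 against 3.20 ± 0.398 TPM) and 1 lower (*Mcam*, 7.45 ± 0.601 against 16.8 ± 2.07 TPM). Endothelial markers (1.63 to 2.25 against 1.69 to 1.82 TPM) and leukocyte markers (3.54 to 4.69 against 3.46 to 5.18 TPM) overlapped, with *Adgre1* and *Cd3e* at 0 in every library. Nerve markers summed to 0.679 to 0.794 against 0.922 to 1.18 TPM, with *Sox10*, *Elavl4* and *Th* at 0. The adipocyte, beige, precursor, smooth muscle and nerve sums did not overlap between the mutants, and their part in the results below was not tested.

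K382Q cells held more *Adrb3*, *Ffar4*, *Mrap*, *Pde4d* and *Rgs2* mRNA and less *Adcy5*, *Adcy7*, *Rgs4* and *Rgs16* mRNA than K382R cells. Tests were made with limma on log2(TPM + 0.5) over all 15426 genes that passed the same minimum, with adjusted p-values over all of them. Of the 53 genes tested, 10 were higher (18.9%) and 26 were lower (49.1%) in K382Q cells at an adjusted p under 0.05, where 11.1% of all tested genes were higher and 36.9% were lower. A differentially expressed gene (DEG) also had a fold change over 2. *Adrb3* and *Ffar4* were among the higher DEGs and *Adcy5*, *Adcy7*, *Rgs4* and *Rgs16* were lower DEGs, while among all tested genes 1.27% were higher and 2.61% were lower DEGs. The libraries of the mutants did not overlap for 41 of the 53 genes (77.4%), against 57.0% of all tested genes. The median log2 fold change was −0.20 for the 53 genes and −0.14 for all tested genes, so both are below 0 on the TPM scale. When libraries were scaled by the median ratio over genes, which brings the median of all genes to 0.00, 12 of the 53 were higher and 18 were lower. Among all 15426 tested genes, 3069 were higher and 3143 were lower after this scaling. The median of the 53 was then −0.05, *Mrap* and *Rgs2* joined the higher DEGs and *Rgs16* left the lower DEGs. In these bulk libraries, fewer cells of a type and less RNA of a gene per cell cannot be told apart.

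**Figure D1:**
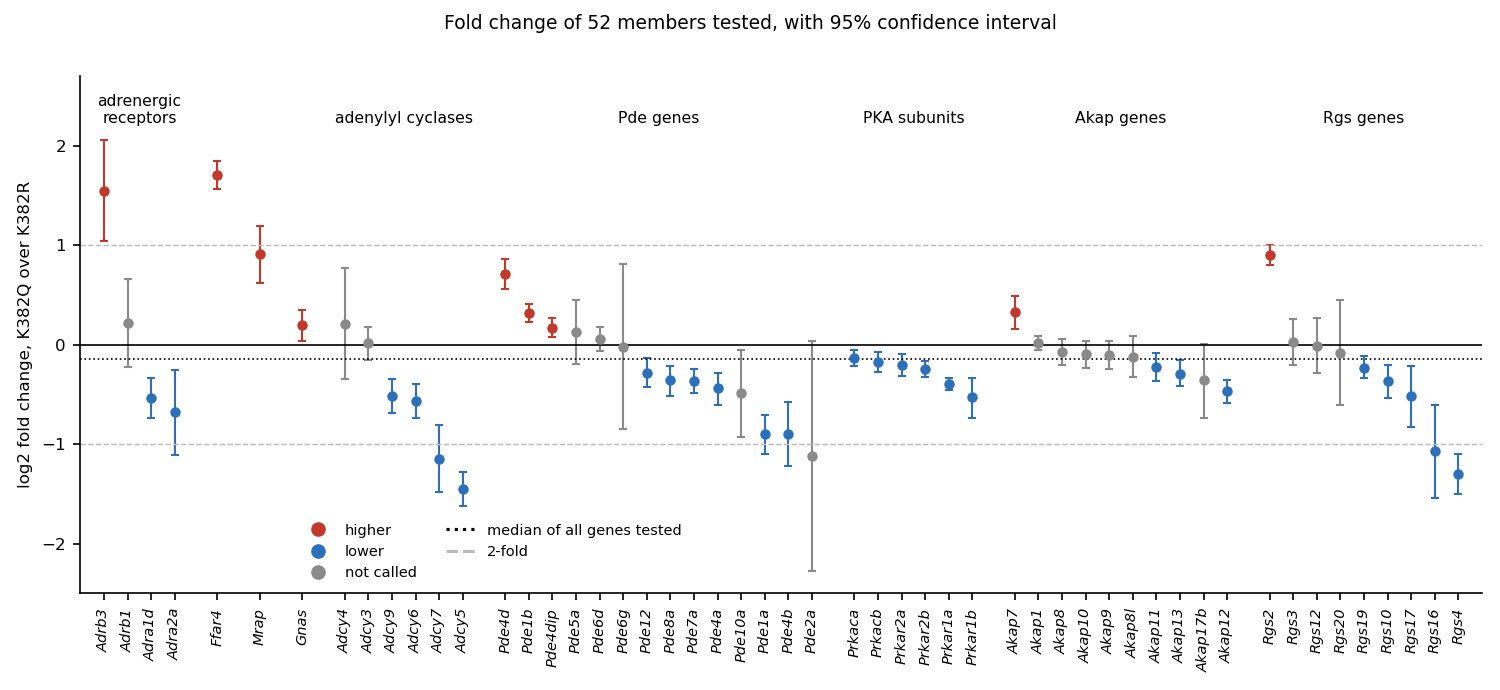
Log2 fold change of K382Q over K382R cells (vertical axis, from log2(TPM + 0.5)) for 52 of the 53 genes tested, grouped by family, with its 95% confidence interval; the dotted line is the median of all tested genes (−0.14) and the dashed lines mark a 2-fold difference. *Adrb3*, *Ffar4*, *Mrap*, *Pde4d* and *Rgs2* lie well above the dotted line, and *Adcy5*, *Adcy7*, *Rgs4* and *Rgs16* well below it, while *Prkaca*, *Prkacb* and most *Akap* genes lie close to it.

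Among the adrenergic receptors, *Adrb3* was higher and *Adra1d* and *Adra2a* were lower in K382Q cells. *Adrb3*, the β3-receptor that marks mature fat cells (chr8:27715804-27740644, minus strand, in the coordinates of the GRCm39 tables), was at 2.92, 1.94 and 1.86 TPM in K382Q and 0.645, 0.289 and 0.363 TPM in K382R cells. Its groups did not overlap, the ratio of the mean TPM values was 5.18, and the log2 fold change on the scale with the pseudocount of 0.5, which draws low genes towards 0, was 1.55 ± 0.22 (SE; adjusted p = 0.000769). *Adrb3* met the minimum level in 1 K382R library only. The mean read coverage listed for it, 0.112 to 0.734 per library, is a mean over transcripts where a gene has several, and so does not give its depth. *Adrb1*, the β1-receptor, was at 1.27, 1.04 and 0.759 TPM in K382Q and 0.919, 0.672 and 0.819 TPM in K382R cells. Those groups overlapped, and the interval of the log2 fold change, −0.22 to 0.66, left room for a difference in either direction (adjusted p = 0.389).

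The α-receptors that could be tested were lower in K382Q cells. *Adra1d*, an α1-receptor that couples to Gq, was at 5.82, 5.39 and 6.17 TPM in K382Q and 9.17, 8.81 and 8.04 TPM in K382R cells. The groups were apart and *Adra1d* was lower in K382Q cells (log2 fold change −0.54 ± 0.0858, adjusted p = 0.00131). *Adra2a*, the Gi-coupled α2A-receptor that opposes the β-receptors in fat cells, was at 0.542, 0.305 and 0.41 TPM in K382Q and 0.871, 1.09 and 0.946 TPM in K382R cells. It met the minimum level in every K382R library, but among the K382Q libraries only in that at 0.542 TPM. It was near the minimum level but lower in each K382Q library than in any K382R library (log2 fold change −0.68 ± 0.185, adjusted p = 0.0175). The call was lost without K382Q replicate 2 (adjusted p = 0.0548) and without K382R replicate 2 (adjusted p = 0.0611). *Adra1b* stayed just below the minimum, at 0.262, 0.235 and 0.392 TPM in K382Q and 0.822, 0.461 and 0.855 TPM in K382R cells, *Adra1a* was at most 0.264 TPM, and *Adra2b* and *Adra2c* were at 0 in every library.

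Since TPM is corrected for gene length, levels can be set side by side within the family. The α1-receptors together were at 6.24 ± 0.374 TPM in K382Q and 9.54 ± 0.537 TPM in K382R cells, and *Adra1d* held 91.5% to 94% of that in K382Q and 88.2% to 94.2% in K382R libraries. *Adra1d* was above *Adrb3*, *Adrb1*, *Adra2a* and *Adra1b* in both groups. This order is among those named genes only and is not a ranking of the whole family. Among them, *Adrb3* was next in K382Q cells, with every library above those of *Adrb1*. In K382R cells *Adra2a*, *Adrb1* and *Adra1b* followed instead, with means of 0.97, 0.803 and 0.713 TPM. The libraries of *Adra2a* and *Adrb1* overlapped there, as did those of *Adrb1* and *Adra1b*.

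**Figure D2:**
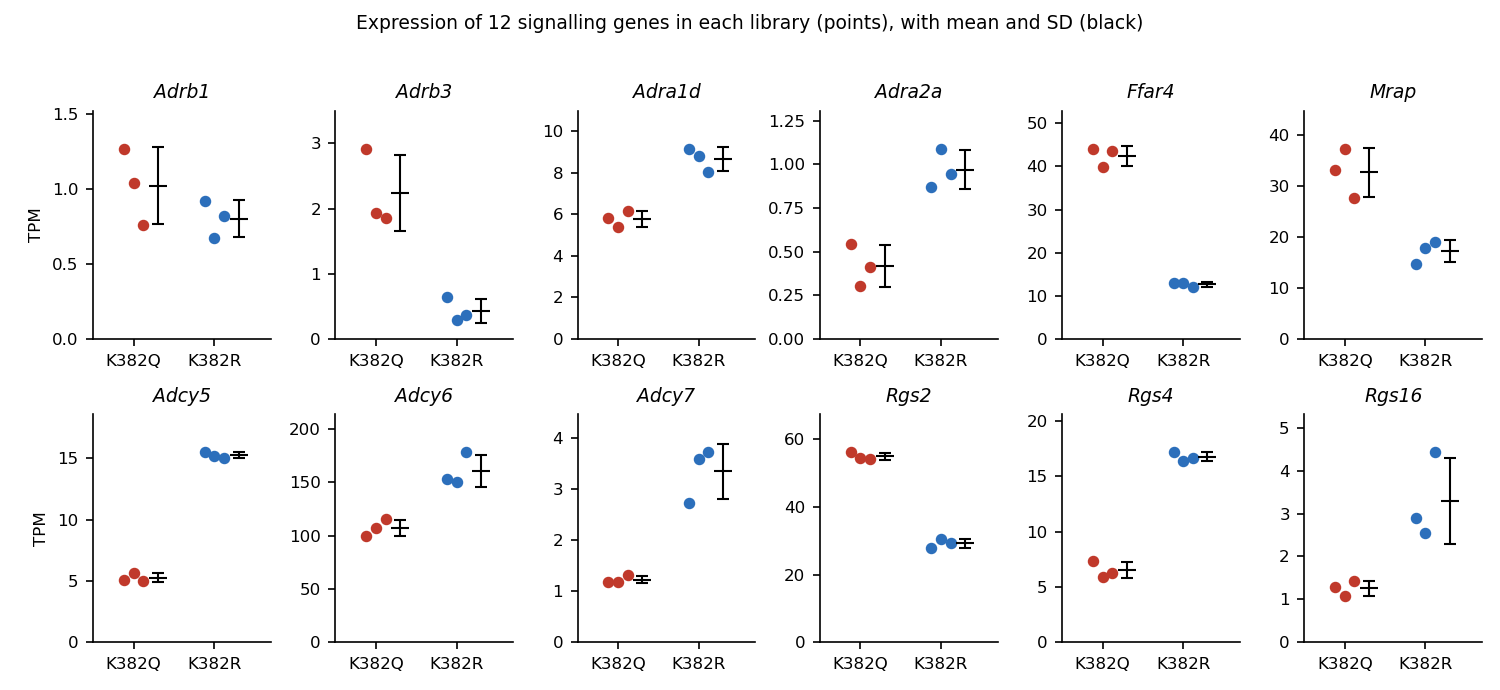
TPM of 12 genes in each library (points; 3 K382Q and 3 K382R libraries), with the mean and SD in black beside them; each panel has its own vertical axis from 0. *Adrb1* is the panel in which the groups overlap, and *Ffar4*, *Adcy5*, *Rgs2* and *Rgs4* show the widest gaps relative to the spread.

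Promoter windows were read from GRCm39 around the start of the canonical transcript of each tested gene, from 250 bases before to 50 bases after it, and searched on both strands for the cAMP response element TGACGTCA, for its shorter form TGACG (which lies inside the full element) and for the direct repeat bound by PPARγ with its partner RXR (AGGTCA, any base, AGGTCA). The full element was in 0 of the 53 windows, against 3.26% of 12183 windows of tested protein-coding genes. The shorter form was in 16 of the 53 (30.2%), against 30.0%. The direct repeat was in 0 of the 53, against 0.0246%. The windows of the genes tested therefore held TGACG about as often as other windows did. The 250 bases before the start are given for 4 of the DEGs, so that genes that differed in opposite directions can be compared, with matches to the shorter form in capitals. *Adrb3* (5′ to 3′, chr8:27720853-27721102, minus strand) held none:
Adrb3: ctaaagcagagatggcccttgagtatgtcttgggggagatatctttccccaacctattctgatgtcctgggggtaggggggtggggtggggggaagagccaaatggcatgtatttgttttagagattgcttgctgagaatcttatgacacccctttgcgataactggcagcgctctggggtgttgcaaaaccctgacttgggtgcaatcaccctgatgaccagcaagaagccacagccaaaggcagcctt

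Some of these genes share exonic bases with a neighbour. In GENCODE M39, 44.4% of the exonic bases of *Adrb3* lie opposite exons of the antisense gene *Gm45470*, and nothing in the sources used here says that strand was used in counting. *Gm45470* was listed at no more than 0.173 TPM in any library. Of the 53 genes, 11 had over 10% of their exonic bases opposite another gene, *Adrb1* (15.7%), *Adra1d* (21.3%), *Adcy3* (19.0%), *Adcy7* (13.0%), *Pde1b* (35.4%), *Rgs2* (11.3%) and *Rgs16* (18.7%) among them. The partner of *Adcy7*, *Brd7*, was far above it, at 37.4 ± 1.52 TPM in K382Q and 39.5 ± 0.419 TPM in K382R cells. Reads of such partners cannot be told apart without strand.

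*Ffar4*, *Mrap* and *Gnas* were all higher in K382Q cells. *Ffar4* (chr19:38085519-38102711, plus strand), the receptor for long-chain fatty acids also called GPR120, was at 44.1, 39.8 and 43.5 TPM in K382Q and 12.9, 13.0 and 12 TPM in K382R cells. The groups were far apart, with a log2 fold change of 1.71 ± 0.0588 (adjusted p = 9.61e-07). Its neighbour *Rbp4* overlaps 5.23% of its exonic bases on the other strand and was also higher (63.5 ± 8.88 against 20.3 ± 2.09 TPM). The 250 bases before the *Ffar4* start (chr19:38085057-38085306, plus strand) held no match:
Ffar4: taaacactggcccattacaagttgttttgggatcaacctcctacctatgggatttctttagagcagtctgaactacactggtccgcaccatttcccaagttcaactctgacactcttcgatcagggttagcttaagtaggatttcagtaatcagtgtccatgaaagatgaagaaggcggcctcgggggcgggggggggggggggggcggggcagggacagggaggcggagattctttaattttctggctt

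*Mrap*, an accessory protein that brings the corticotropin receptor MC2R to the cell surface, was at 33.2, 37.4 and 27.8 TPM in K382Q and 14.8, 17.8 and 19.0 TPM in K382R cells. The groups did not overlap (log2 fold change 0.91 ± 0.123, adjusted p = 0.000601). The receptor's own gene, *Mc2r*, named here after its value was seen, differed in the other direction, at 20.0 ± 2.75 and 27.3 ± 2.14 TPM (log2 fold change −0.45, adjusted p = 0.00773). *Gnas* was the most abundant of the 53 genes, at 704, 747 and 700 TPM in K382Q and 698, 599 and 584 TPM in K382R cells. The highest K382R library was just under the lowest K382Q library, and the small difference (log2 fold change 0.20 ± 0.0662, adjusted p = 0.0406) was lost when any library other than K382R replicate 1 was left out (adjusted p = 0.0642 to 0.127) and with no minimum level (adjusted p = 0.136). *Gnas* also gives rise to several transcripts from different promoters, which a gene-level value does not separate.

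Of the 6 adenylyl cyclases that could be tested, 0 were higher and 4 were lower in K382Q cells (66.7%, where 36.9% of all tested genes were lower). *Adcy5* (chr16:34975247-35126108, plus strand), a cyclase inhibited by calcium, was at 5.07, 5.68 and 5.02 TPM in K382Q and 15.5, 15.2 and 15 TPM in K382R cells. Each K382R library was more than 2-fold above each K382Q library (log2 fold change −1.45 ± 0.0717, adjusted p = 4.28e-06). Its close relative *Adcy6*, by far the most abundant cyclase, was at 100, 107 and 115 TPM in K382Q and 153, 150 and 178 TPM in K382R cells. *Adcy6* was thus lower in each K382Q library too (log2 fold change −0.57 ± 0.0735, adjusted p = 0.000463). *Adcy7* (chr8:88999031-89056590, plus strand), which Gβγ stimulates, was at 1.18, 1.19 and 1.31 TPM in K382Q and 2.72, 3.59 and 3.72 TPM in K382R cells (log2 fold change −1.15 ± 0.145, adjusted p = 0.000434). Its lower call held under every alternative, but its fold was under 2 with FPKM (−0.83) and with a pseudocount of 1 (−0.96). *Adcy9* was also lower (6.97 ± 0.318 against 10.2 ± 0.589 TPM, log2 fold change −0.52, adjusted p = 0.00081).

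*Adcy3*, a cyclase best known from olfactory neurons and also present in fat, did not follow them. It was at 13.2, 13.3 and 13.4 TPM in K382Q and 13.8, 13.8 and 11.9 TPM in K382R cells, with an interval of −0.15 to 0.18 for the log2 fold change. *Adcy4* was near the minimum level in both groups (0.606 ± 0.158 and 0.467 ± 0.214 TPM, interval −0.35 to 0.77). The other 4 cyclases were below it, *Adcy2* at 0 throughout. The summed cyclase level was 128, 135 and 142 TPM in K382Q and 196, 192 and 220 TPM in K382R cells, a ratio of means of 0.666. *Adcy6* held 78.7% to 80.6% of it in K382Q and 77.8% to 80.7% in K382R libraries, *Adcy5* held 3.53% to 4.21% and 6.84% to 7.9%, and *Adcy3* 9.42% to 10.4% and 5.42% to 7.16%. All 4 lower calls held under median-ratio scaling. The *Adcy5* bases before the start (chr16:34974773-34975022, plus strand) held no match to TGACG:
Adcy5: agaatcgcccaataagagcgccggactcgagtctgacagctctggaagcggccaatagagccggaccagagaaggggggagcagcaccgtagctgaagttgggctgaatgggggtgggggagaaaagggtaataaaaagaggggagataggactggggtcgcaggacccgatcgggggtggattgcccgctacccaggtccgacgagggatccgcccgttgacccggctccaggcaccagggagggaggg

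The phosphodiesterase genes differed in their make-up. On the TPM scale the 25 genes with *Pde* symbols summed to 254 ± 5.16 TPM in K382Q and 256 ± 3.18 TPM in K382R cells, with overlapping libraries, but after median-ratio scaling the sums were 258, 273 and 270 against 246, 241 and 239 and did not overlap. Of the 14 tested, 3 were higher (*Pde4d*, *Pde1b* and *Pde4dip*), 6 were lower (*Pde1a*, *Pde4b*, *Pde4a*, *Pde7a*, *Pde8a* and *Pde12*) and 5 were not called. Those are shares of 21.4% and 42.9%, against 11.1% and 36.9% of all tested genes, so the lower share was near that of all genes. Within the cAMP-specific PDE4 enzymes, *Pde4d* was at 18.1, 18.6 and 18.3 TPM in K382Q and 10.4, 10.8 and 11.9 TPM in K382R cells (log2 fold change 0.71 ± 0.064, adjusted p = 7.81e-05). *Pde4b* was at 5.32, 4.41 and 4.14 TPM in K382Q and 8.98, 7.63 and 10.7 TPM in K382R cells (log2 fold change −0.90 ± 0.138, adjusted p = 0.00114). The 2 genes thus differed in opposite directions, and their ratio was 3.41, 4.21 and 4.43 in K382Q and 1.16, 1.41 and 1.11 in K382R libraries. *Pde4a* was lower, at 9.39 ± 0.631 against 12.9 ± 0.565 TPM (log2 fold change −0.44, adjusted p = 0.00148).

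The calcium- and calmodulin-activated PDE1 enzymes, which break down both cAMP and cGMP, showed the same contrast within a family. *Pde1b*, the most abundant phosphodiesterase enzyme of the rule, was at 64.1, 67.7 and 65.5 TPM in K382Q and 52.3, 54.3 and 50.9 TPM in K382R cells (log2 fold change 0.32 ± 0.0395, adjusted p = 0.000361). *Pde1a* was at 7.65, 9.15 and 8.66 TPM in K382Q and 15.2, 16.7 and 17.1 TPM in K382R cells (log2 fold change −0.90 ± 0.0834, adjusted p = 8.63e-05). No libraries overlapped for either gene, and the ratio of *Pde1b* to *Pde1a* was 7.78 ± 0.531 in K382Q and 3.23 ± 0.232 in K382R cells. *Ppp1r1a*, which lies opposite 35.4% of the exonic bases of *Pde1b*, was higher too, at 14.9 ± 1.16 against 5.40 ± 1.61 TPM. *Pde3b*, the insulin-activated phosphodiesterase of fat cells that the rule leaves out, was at 85.0 ± 1.66 TPM in K382Q and 67.4 ± 0.504 TPM in K382R cells (log2 fold change 0.33, adjusted p = 9.85e-05), a level above that of every *Pde* gene of the rule.

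The remaining phosphodiesterases are named after their values were seen. The cAMP-specific enzymes *Pde7a* (19.6 ± 0.905 against 25.5 ± 0.856 TPM) and *Pde8a* (12.3 ± 0.771 against 16.0 ± 0.778 TPM) were lower, with log2 fold changes of −0.37 and −0.36 (adjusted p = 0.00086 and 0.00306). Summed over the 8 cAMP-specific genes, the level was 67.3, 62.9 and 64.3 TPM in K382Q and 74.8, 73.1 and 77.2 TPM in K382R cells, and *Pde4d* supplied 26.9% to 29.5% of it in K382Q and 14% to 15.4% in K382R libraries. After median-ratio scaling the cAMP-specific sums overlapped (69.9, 66.7 and 67.9 against 70.9, 69.3 and 72.7). The dual-specificity genes summed to 77.6 ± 4.1 and 75.0 ± 1.83 TPM, with libraries that overlapped on TPM and not after scaling (75.7, 85.5 and 83.6 against 70.1, 73.1 and 69.7). Several *Pde* symbols name proteins with other roles: *Pde4dip*, a scaffold of the centrosome and Golgi (37.6 ± 0.812 against 33.3 ± 0.812 TPM, log2 fold change 0.17, adjusted p = 0.00903), *Pde12*, a mitochondrial deadenylase (7.17 ± 0.0874 against 8.82 ± 0.216 TPM, log2 fold change −0.28, adjusted p = 0.00891; lost under median-ratio scaling at 0.126), and *Pde6d*, a carrier of prenylated proteins (64.2 ± 2.9 against 61.5 ± 3.55 TPM, adjusted p = 0.383, but 0.0203 under median-ratio scaling).

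*Pde2a*, a dual-specificity enzyme that cGMP stimulates, varied widely among the K382Q replicates. It was at 0.583, 3.27 and 4.49 TPM in the K382Q libraries and at 5.48, 5.44 and 5.41 TPM in the K382R libraries, and was not called (log2 fold change −1.12, interval −2.28 to 0.04, adjusted p = 0.101), though it was without K382Q replicate 1 (−0.45, adjusted p = 0.0344) or without K382Q replicate 3 (−1.56, adjusted p = 0.0334). *Gm45837* covers 52.6% of its exonic bases on the same strand and was at 4.68, 1.85 and 0.728 TPM in the same K382Q libraries, so that it was high where *Pde2a* was low. Their sum was 5.26, 5.12 and 5.22 TPM in K382Q and 6.93, 6.04 and 6.25 TPM in K382R cells. The sum therefore spread far less than *Pde2a* alone, and a split of shared reads between the genes cannot be told apart from a difference in *Pde2a* here. *Pde10a*, which passed the minimum only through its K382R libraries (0.714, 0.668 and 0.512 TPM, against 0.351, 0.301 and 0.259 TPM), was not called either (adjusted p = 0.0666). *Pde5a* and *Pde6g* showed no call, with intervals of −0.19 to 0.45 and −0.85 to 0.81.

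**Figure D3:**
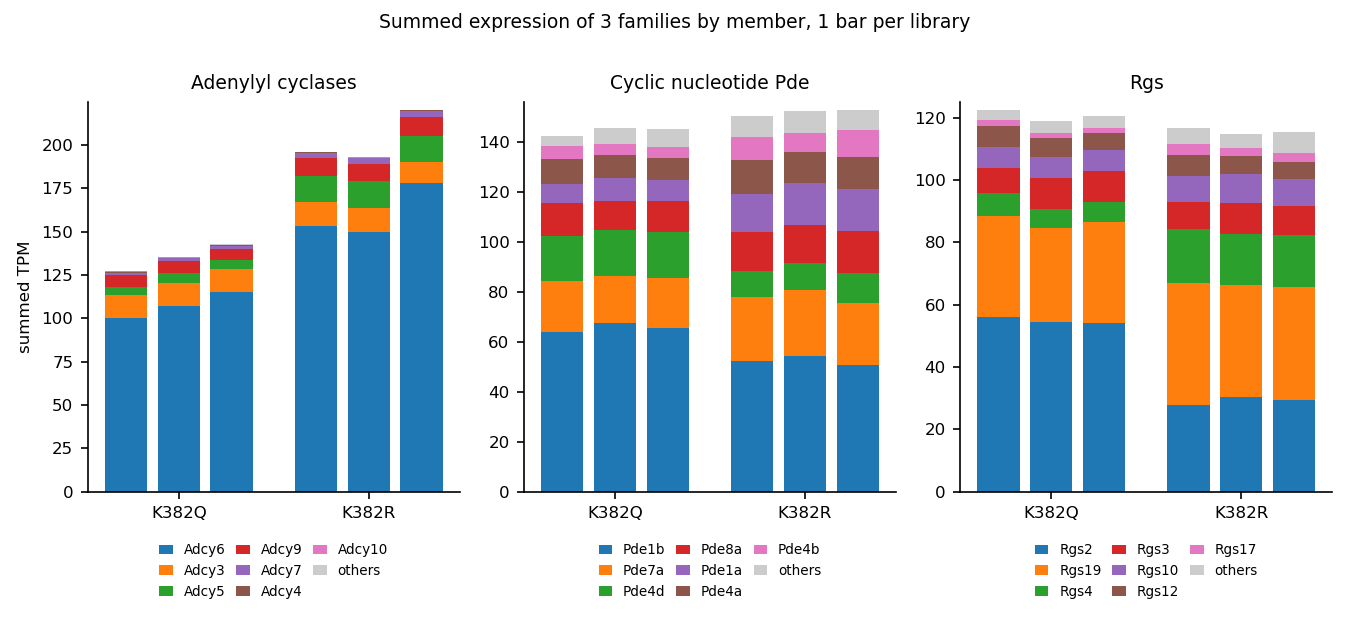
Summed TPM (vertical axis) of 3 families in each library, 1 bar per library, coloured by member; the phosphodiesterase panel leaves out the *Pde* genes of other function. The cyclase bars are taller in K382R cells, whereas the *Rgs* bars are slightly taller in K382Q cells (121 ± 1.86 and 116 ± 0.96 TPM) with a larger *Rgs2* part in K382Q cells.

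On the TPM scale 6 of 6 PKA subunits were slightly lower in K382Q cells, where 36.9% of all tested genes were lower. Under median-ratio scaling 2 of the 6 stayed lower, where 3143 of 15426 tested genes were lower. The sum of the subunits was 758, 745 and 742 TPM in K382Q and 905, 881 and 885 TPM in K382R cells. *Prkar1a*, the type I regulatory subunit found in most tissues, was at 170, 169 and 169 TPM in K382Q and 222, 225 and 222 TPM in K382R cells. The replicates hardly spread, and the log2 fold change was −0.40 ± 0.0253 (adjusted p = 1.41e-05). *Prkar2b*, the main type II regulatory subunit of fat cells, was at 302, 290 and 293 TPM in K382Q and 362, 338 and 345 TPM in K382R cells (log2 fold change −0.24 ± 0.0341, adjusted p = 0.00081). *Prkar1b* was lower by more but far less abundant (8.30 ± 0.692 against 12.2 ± 0.982 TPM, log2 fold change −0.53, adjusted p = 0.00159), and *Prkar2a* was at 58.8 ± 2.04 and 67.7 ± 3.29 TPM (log2 fold change −0.20, adjusted p = 0.00891).

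The catalytic subunits were closest to the shift of all genes. *Prkaca* was at 169 ± 6.46 and 185 ± 3.42 TPM (log2 fold change −0.13, adjusted p = 0.018) and *Prkacb* at 47.9 ± 0.914 and 54.0 ± 2.6 TPM (log2 fold change −0.17, adjusted p = 0.0145), where the median of all tested genes was −0.14. Under median-ratio scaling *Prkar1a* (−0.25, adjusted p = 0.000226) and *Prkar1b* (−0.39, adjusted p = 0.00838) kept their calls, while *Prkar2b* (−0.09), *Prkar2a* (−0.05), *Prkacb* (−0.02) and *Prkaca*, which turned to 0.02, lost them. With FPKM in place of TPM, *Prkaca*, *Prkacb* and *Prkar2a* also lost their calls (adjusted p = 0.328, 0.155 and 0.097). *Prkaca* lost its call as well without K382Q replicate 3, K382R replicate 1 or K382R replicate 3 (adjusted p = 0.0548 to 0.0623). Ratios between subunits do not depend on the scaling: regulatory to catalytic TPM was 2.48, 2.35 and 2.51 in K382Q and 2.71, 2.77 and 2.68 in K382R libraries, and type II to type I regulatory TPM was 2.02, 1.96 and 2.00 in K382Q and 1.83, 1.72 and 1.76 in K382R libraries. Neither ratio overlapped between the mutants, and the regulatory share, the type I part above all, was the smaller in K382Q cells.

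Among the A-kinase anchoring proteins, 10 were tested, 1 was higher (10.0%), 3 were lower (30.0%) and 6 were not called, shares no larger than the 11.1% and 36.9% of all tested genes. *Akap7*, an anchor known for placing PKA near ion channels and phospholamban, was at 18.7, 17.8 and 19.6 TPM in K382Q and 14.2, 14.1 and 16.1 TPM in K382R cells (log2 fold change 0.33 ± 0.0699, adjusted p = 0.00604). *Akap12*, or gravin, a scaffold of PKA and other kinases, was at 14.3, 14.0 and 13.9 TPM in K382Q and 19.9, 20.1 and 19.3 TPM in K382R cells (log2 fold change −0.47 ± 0.0491, adjusted p = 0.000156). These calls held under every alternative tried. *Akap13* (log2 fold change −0.29, adjusted p = 0.00429), and *Akap11* (−0.22, adjusted p = 0.0175) were lower on TPM and lost their calls under median-ratio scaling (−0.14 and −0.07, adjusted p = 0.0902 and 0.334), and *Akap11* also lost it with FPKM (adjusted p = 0.104) and without K382R replicate 3 (adjusted p = 0.0567).

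*Akap1*, which tethers PKA to the outer mitochondrial membrane, was the most abundant anchor. It was at 107, 111 and 111 TPM in K382Q and 108, 108 and 108 TPM in K382R cells, and the interval of the log2 fold change, −0.05 to 0.09, was narrow (adjusted p = 0.596). Relative to the median of all genes it was higher in K382Q cells, at 0.17 after median-ratio scaling (adjusted p = 0.0046). *Akap8*, a nuclear anchor and next in level, was at 49 ± 2.53 and 51.4 ± 3.06 TPM and was not called (interval −0.20 to 0.06). The family sum was 287 ± 7.75 TPM in K382Q and 301 ± 2.98 TPM in K382R cells, and turned to 304, 295 and 305 against 284, 283 and 287 after median-ratio scaling.

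The RGS genes differed between the groups in their leading member. On the TPM scale they summed to 123, 119 and 120 TPM in K382Q and 117, 115 and 115 TPM in K382R cells, a small gap with no overlap that was wider after median-ratio scaling (127, 126 and 127 against 110, 109 and 109). *Rgs2*, which acts mainly on Gq and is known to restrain adenylyl cyclases, was at 56.1, 54.3 and 54.1 TPM in K382Q and 27.8, 30.4 and 29.3 TPM in K382R cells (log2 fold change 0.90 ± 0.0446, adjusted p = 4.28e-06). *Rgs4* (chr1:169569046-169575211, minus strand), of the same R4 subfamily and acting on Gi and Gq, was at 7.39, 5.95 and 6.28 TPM in K382Q and 17.2, 16.4 and 16.7 TPM in K382R cells (log2 fold change −1.30 ± 0.0856, adjusted p = 1.69e-05). The R4 genes were thus split, and the ratio of *Rgs2* to *Rgs4* was 7.6, 9.12 and 8.61 in K382Q and 1.62, 1.85 and 1.75 in K382R libraries. *Rgs16* (chr1:153616095-153621214, plus strand), another R4 gene, was at 1.3, 1.07 and 1.42 TPM in K382Q and 2.9, 2.54 and 4.43 TPM in K382R cells (log2 fold change −1.07 ± 0.199, adjusted p = 0.00295). Its lower call held under every alternative, but the fold stayed over 2 in 8 of 13, and the log2 fold change was −0.87 without K382R replicate 3 and −0.99 without K382Q replicate 2.

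*Rgs2* held 44.9% to 45.8% of all RGS TPM in K382Q and 23.9% to 26.5% in K382R libraries, whereas *Rgs19* led in K382R libraries with 31.4% to 33.7% (25.6% to 27% in K382Q). *Rgs19*, an RZ protein that acts on Gi and Gz, was at 31.7 ± 1.13 and 37.3 ± 1.79 TPM (log2 fold change −0.23, adjusted p = 0.00688), a call lost under median-ratio scaling (−0.08, adjusted p = 0.254) and with FPKM (adjusted p = 0.0501). *Rgs17*, also of the RZ type, was lower (1.83 ± 0.166 against 2.86 ± 0.378 TPM, log2 fold change −0.52, adjusted p = 0.0133, or 0.0532 with no minimum level), and so was *Rgs10*, a small Gi-directed RGS protein (6.68 ± 0.0459 against 8.82 ± 0.524 TPM, log2 fold change −0.37, adjusted p = 0.00393). *Rgs3*, *Rgs12* and *Rgs20* were not called, with intervals of −0.20 to 0.26, −0.28 to 0.27 and −0.61 to 0.45. The R4 genes summed to 72.0 ± 0.807 TPM in K382Q and 58.4 ± 1.67 TPM in K382R cells, and the RZ genes to 34.8 ± 0.937 and 41.5 ± 2.06 TPM, though the RZ sums overlapped after scaling (36.4, 35.8 and 37.7 against 41.4, 37.7 and 38.5).

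Of the 16 genes with TGACG in their window, 3 were higher, 10 were lower and 3 were not called, beside 18.9% higher and 49.1% lower among the 53 and 11.1% and 36.9% among all tested genes, and nothing about the element is read from this count. *Rgs2* (173 and 55 bases before the start) and *Mrap* (14 bases after it) are among the higher ones, and *Rgs4* among the lower ones. In *Rgs4* the matches, in capitals below (chr1:169575219-169575468, minus strand), lie 229 and 134 bases before the start:
Rgs4: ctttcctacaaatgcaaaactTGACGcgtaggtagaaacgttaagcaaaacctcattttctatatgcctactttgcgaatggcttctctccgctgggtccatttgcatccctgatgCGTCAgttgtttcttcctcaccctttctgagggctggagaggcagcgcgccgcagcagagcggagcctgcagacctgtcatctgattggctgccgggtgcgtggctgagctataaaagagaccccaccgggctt

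The 38 genes below the minimum add few levels. Of these, 9 were at 0 in every library, among them *Adcy2*, *Adra2b*, *Adra2c*, *Akap4*, *Rgs1* and *Rgs18*, and 4 reached 0.5 TPM in at least 1 library. Those were *Adra1b*, given above, *Rgs7* (0.972, 0.282 and 0.589 TPM in K382Q and 0.378, 0.349 and 0.166 TPM in K382R cells), *Rgs11* (0.559 TPM in 1 K382Q library) and *Pde9a* (0.543 TPM in 1 K382R library). *Rgs7* and *Adra1b* lay just outside the minimum, with 2 libraries above it, and *Pde10a*, with 3, just inside.

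Other genes of the pathway were taken from lists chosen for their role. Their shares on TPM stand beside the 11.1% higher and 36.9% lower among all tested genes. Their counts after median-ratio scaling stand beside 3069 higher and 3143 lower of all 15426 tested genes. Nothing particular to a list is read from these shares and counts. Among 22 tested G protein subunits other than *Gnas*, 2 were higher (9.09%) and 13 were lower (59.1%), or 4 and 10 under median-ratio scaling. *Gng2* was the largest increase (3.20 ± 0.113 against 1.86 ± 0.176 TPM, log2 fold change 0.65, adjusted p = 0.00231) and *Gngt2* the largest decrease (3.14 ± 0.81 against 11.9 ± 1.19 TPM, −1.78, adjusted p = 8.78e-05), and both have over 10% of their exonic bases opposite another gene. Among the Gi subunits, *Gnai1* was higher at a low level (2.00 ± 0.311 against 1.22 ± 0.193 TPM, log2 fold change 0.54, adjusted p = 0.0234), a call made under 9 of 13 alternatives (adjusted p up to 0.0821). The far more abundant *Gnai2* (220 ± 6.56 against 283 ± 4.81 TPM, −0.37) and *Gnai3* (75.2 ± 2.95 against 101 ± 3.11 TPM, −0.42), were lower under both scalings. The Gi genes are named after their values were seen. Of 7 genes of receptor desensitization, 1 was higher (14.3%) and 2 were lower (28.6%), or 3 and 2 after scaling. *Arrdc3*, an α-arrestin linked to β-receptor trafficking, was at 70.1, 63.0 and 60.9 TPM in K382Q and 28.8, 27.7 and 30.0 TPM in K382R cells (log2 fold change 1.15 ± 0.0599, adjusted p = 5.43e-06). The receptor kinase *Grk6* was lower (67.1 ± 5.3 against 91.4 ± 2.01 TPM, −0.45, adjusted p = 0.000465).

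Of 8 PKA inhibitors and cAMP effectors other than PKA, 1 was higher (12.5%) and 5 were lower (62.5%), or 2 and 4 after scaling. *Pkig*, a PKA inhibitor, was at 71.8 ± 5.03 and 57.9 ± 1.98 TPM (log2 fold change 0.31, adjusted p = 0.00269). *Rapgef3*, which encodes the cAMP-activated exchange factor EPAC1, was at 0.55, 0.53 and 0.565 TPM in K382Q and 2.5, 2.02 and 2.19 TPM in K382R cells (−1.38 ± 0.146, adjusted p = 0.000173), though 22.1% of its exonic bases lie opposite other genes. A list of 11 genes held CREB factors, coactivators and the kinase genes *Sik1*, *Sik2* and *Sik3*. Of these, 0 were higher and 8 were lower (72.7%), and none was a DEG. The largest decreases were those of the coactivators *Crebbp* (11.3 ± 0.419 against 15.1 ± 0.538 TPM, −0.40, adjusted p = 0.000928) and *Crtc3* (6.54 ± 0.126 against 8.80 ± 0.319 TPM, −0.40, adjusted p = 0.00205). Under median-ratio scaling 3 of the list were lower and 1 was higher, the kinase gene *Sik2* (0.12, adjusted p = 0.0247). Of 15 genes known as early responders to cAMP, 3 were higher (20.0%) and 6 were lower (40.0%), or 3 and 5 after scaling, with *Ppargc1a*, which encodes PGC-1α, as the largest increase (4.62 ± 0.363 against 1.78 ± 0.219 TPM, 1.17, adjusted p = 0.000163) and *Il6* as the largest decrease (1.66 ± 0.513 against 5.34 ± 0.945 TPM, −1.45, adjusted p = 0.000677).

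Of 15 other receptors that couple to Gs or Gi and their partners, 6 were higher (40.0%) and 5 were lower (33.3%), and the same numbers after scaling. *Gipr*, the receptor of the incretin GIP, was at 3.1, 2.94 and 2.53 TPM in K382Q and 0.159, 0.335 and 0.33 TPM in K382R cells. Every K382Q library was far above every K382R library (log2 fold change 2.12 ± 0.169, adjusted p = 4.25e-05), but *Gipr* passed the minimum only through its K382Q libraries, so a difference was built into its passing. *S1pr1*, a Gi-coupled receptor for sphingosine 1-phosphate, was at 3.15, 2.79 and 3.19 TPM in K382Q and 18.2, 18 and 20.1 TPM in K382R cells (−2.45 ± 0.0831, adjusted p = 9.08e-07). *Ramp2*, a partner of the calcitonin receptor-like receptor, was at 0.129, 3.05 and 0.19 TPM in K382Q and 18, 3.46 and 6.48 TPM in K382R cells (−2.79 ± 0.758, adjusted p = 0.0175). Its replicates spread widely, 28.5% of its exonic bases are shared with *Vps25* on the same strand, and the call was lost under 4 of 13 alternatives (adjusted p up to 0.0799), among them leaving out K382Q replicate 1, K382Q replicate 3 or K382R replicate 1 (adjusted p = 0.0568, 0.0577 and 0.0537).

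The choice of scaling moved calls with small fold changes. Of the 36 calls on TPM, 28 were kept under median-ratio scaling, 8 were lost (*Akap11*, *Akap13*, *Pde12*, *Prkaca*, *Prkacb*, *Prkar2a*, *Prkar2b* and *Rgs19*) and 2 were gained (*Akap1* and *Pde6d*), and no kept call changed its direction. Of the 36, 25 were called under every one of 13 alternatives.

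**Figure D4:**
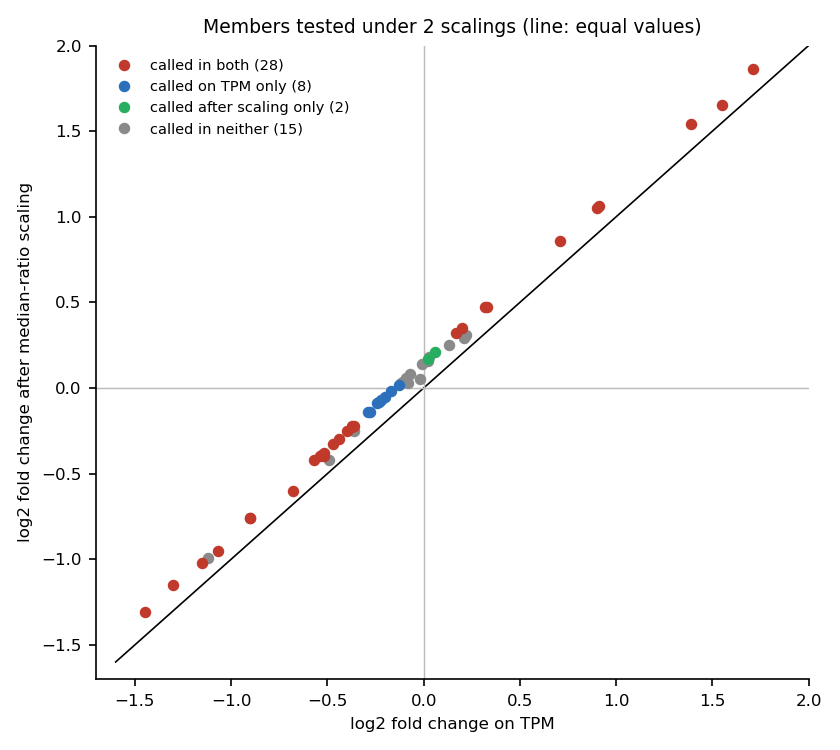
Log2 fold change of K382Q over K382R cells on TPM (horizontal axis) against that after median-ratio scaling (vertical axis) for the 53 genes tested; the line marks equal values and colours show under which scaling a gene was called. The points lie above the line by about the shift of all genes, and the calls lost (8) or gained (2) are among the smaller fold changes.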

How the data were processed

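RNA from 3 K382Q and 3 K382R libraries was prepared with a NEBNext Ultra kit and sequenced on a NovaSeq X Plus. The authors trimmed reads with TrimGalore, aligned them to GRCm39 with HISAT2, sorted them with SAMtools and estimated gene levels with StringTie; the annotation release is not given in the sources used here. The deposited tables of each library hold TPM (a share of each library, corrected for gene length), FPKM and mean read coverage per gene. The coverage served to estimate depth (5.95 to 8.15 Gb aligned per library). The authors ran DESeq2 on read counts that are not analysed here, so reads per gene are not known. For a gene with several transcripts the coverage is a mean over them while FPKM is their sum. The coverage therefore does not show how thinly such a gene was covered.

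TPM were transformed to log2(TPM + 0.5), genes with at least 0.5 TPM in at least 3 libraries were kept (15426), and K382Q was compared with K382R using limma 3.58.1 with a mean-variance trend (R 4.3.3) and Benjamini-Hochberg adjustment over all of them. Fold changes on this scale understate those of low genes. A call is an adjusted p under 0.05, and a DEG also has a fold over 2. The test was tried on simulated data first. Alternatives were FPKM, median-ratio scaling, pseudocounts of 1 and 0.1, no minimum, a minimum of 1 TPM, a replicate block and leaving out each library. Exonic overlaps and promoter windows came from GENCODE M39 on GRCm39. Python 3.11.15, pandas 2.3.3, numpy 2.4.6 and matplotlib 3.10.9 were used. Genes are named by a rule: every DEG, every tested adrenergic receptor and PKA subunit, *Gnas*, *Mrap* and *Ffar4*; in each family the 3 largest called changes in each direction and the 2 most abundant genes; genes below the minimum that reach 0.5 TPM in a library; and of each pathway list the DEGs and the largest called change in each direction. Genes named outside it were chosen after their values were seen. The genes, lists and rule were chosen with earlier results of these data known. The result of 1 gene is not reported here.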

Additional observations from a re-analysis of the deposited data

How the results depend on the processing

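Of 684 values (each tested gene under each alternative), 651 stayed on their side of the threshold. Of the rest, 25 lost a call, 7 gained one, and 1 lost its call and changed direction. Values without a call count among the 651 even where their sign changed, as for *Adcy3* (0.02, and −0.05 without K382R replicate 3). The called value that changed direction was that of *Prkaca*, at 0.02 on the log2 scale under median-ratio scaling (adjusted p = 0.674). Genes not called on TPM that changed sign under that scaling included *Akap8* (−0.07 to 0.08), *Akap9* (−0.10 to 0.04) and *Akap10* (−0.09 to 0.06). Of the DEGs, 5 were higher under median-ratio scaling, and 2 were lower under FPKM and 2 with a pseudocount of 1; the cause was not tested. Over all genes, 1717 were higher and 5698 lower on TPM, against 3069 and 3143 under median-ratio scaling (196 and 403 DEGs against 287 and 296). Leaving out each library in turn gave 9 to 10 genes higher, 24 to 28 lower, 3 to 4 higher DEGs and 3 to 5 lower DEGs. Deviations of same-numbered libraries correlated at −0.0177, 0.0507 and 0.0223, so the numbers were not taken to pair the libraries, and the fit with a replicate block gave 10 higher, 26 lower, 3 higher DEGs and 4 lower DEGs, with no call changed. TPM are shares of a library, 3 libraries a group limit the precision, and counting error per gene could not be given.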
